A study of Homo sapiens with 12 samples.

Results

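Elongator and the enzymes that finish its product on cytosolic tRNAs were followed in A375 cells, a human melanoma line with an activating BRAF mutation. The 9 genes were ELP2, ELP3, ELP4, ELP5, ELP6, CTU1, CTU2, ALKBH8 and URM1, taken by symbol from the 44659 genes of the count table, and all 9 were among the 15916 genes with enough reads to be tested. Control cells (CC) were kept in DMSO, the solvent, over 72 h. Treated cells (TC) were given a BRAF inhibitor, vemurafenib, and a MEK inhibitor, cobimetinib, at 500 nM each (MAPKi) for the same 72 h and were collected at once. Persister cells (PC) had that treatment and 2 further days in medium without drug, and recovered cells (RC) had 9 such days. Each group held 3 libraries of cytoplasmic RNA depleted of ribosomal RNA. All groups were 1 cell line in the same medium, and each harvest time was 1 batch of plates, so batch and time cannot be told apart. Controls were collected only after 72 h, so RC and CC also differ in days in culture. The labels number the replicates without saying whether they were separate cultures, and p-values measure the spread between these samples, which may be technical.

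Elongator is a cytosolic complex that adds a carboxymethyl group to the uridine at the wobble position of the anticodon, the tRNA base that pairs with the last base of a codon. ELP3 is its catalytic subunit, ELP2 a WD-repeat scaffold beside it, and ELP4, ELP5 and ELP6 form the accessory ring. ALKBH8 then methylates the added group, and the CTU1 and CTU2 pair puts sulfur on the same uridine, with URM1, a ubiquitin-like protein, as the sulfur carrier. The finished base is found in the tRNAs that read AAA, GAA and CAA, codons for lysine, glutamate and glutamine. In melanoma with mutant BRAF these enzymes are known for their role in translating mRNAs that are rich in such codons. The libraries measure the mRNAs of the enzymes, and neither protein nor tRNA modification was measured. A lower mRNA level in such bulk samples can mean less of it in each cell or fewer cells that carry it, which cannot be told apart.

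Total counts ran from 37773389 to 55567097 per library, and 3 counts corresponded to 0.0540 to 0.0794 counts per 1000000 (CPM), a floor that covers counting error only. CPM values are given per library total scaled by its TMM factor, except that floor, which uses the total alone. As a check of the drugs, ETV4, a transcription factor gene driven by ERK signaling, was at 230 to 238 CPM in CC, 2.39 to 2.77 CPM in TC, 1.49 to 2.08 CPM in PC and 226 to 237 CPM in RC, and DUSP6, an ERK phosphatase gene, had group means of 156, 3.94, 5.24 and 135 CPM in that order, with controls from 77.6 to 297 CPM. The melanocyte lineage gene SOX10 was at 539 to 1067 CPM across the libraries, MITF at 147 to 476 CPM, PMEL at 36.9 to 817 CPM and S100B at 128 to 305 CPM, whereas MLANA and TYR, of pigment cells, stayed at or below 1.94 and 5.93 CPM. Of the leukocyte, endothelial and epithelial markers, VWF reached 5.21 CPM, PTPRC 0.694 CPM and EPCAM 0.339 CPM in a library, the others stayed at or below 0.109 CPM, and CDH5 had 0 counts in all libraries.

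Per kb of the canonical transcript, the CC levels ran in the order URM1 (41.5 ± 2.17 CPM per kb, SD, n = 3), ELP6 (28.2 ± 3.27), ELP3 (21.9 ± 0.823), ELP2 (20.5 ± 1.39), CTU1 (18.0 ± 1.33), CTU2 (13.4 ± 2.18), ALKBH8 (4.06 ± 0.688), ELP4 (2.36 ± 0.318) and ELP5 (0.373 ± 0.0957). ELP3 and ELP2 overlapped in range among the 3 libraries, and no other neighbors in that order did. The order rests on 1 transcript per gene, and the canonical ELP2 transcript is 8432 bases long for a coding length of 2478 bases. The place of ELP5 rests on 18 to 28 reads per CC library, and the cause of its low count was not tested. In TC, PC and RC the first 3 places and the last 3 places were held by the same genes, and CTU2 stood above CTU1 in each, the reverse of CC.

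Against control cells, 6 of the 9 genes changed in TC by edgeR's quasi-likelihood test at a Benjamini-Hochberg adjusted p under 0.05. ALKBH8 and URM1 rose, and ELP2, ELP3, ELP6 and CTU1 fell. Of all genes tested, 33.2% rose and 34.7% fell in that comparison, so the share of members that changed was near the background. Tested against a change of 1.5-fold, 3 members remained, ALKBH8 higher and ELP2 and CTU1 lower, beside 16.1% of all genes higher and 19.3% lower. Without TC replicate 3, the TC library with the most ALKBH8, the call of ALKBH8 beyond 1.5-fold was lost, with 0 higher and 2 lower. The median size of the log2 fold change, without its sign, was 0.28 over the members and 0.63 over all genes.

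**Figure D1:**
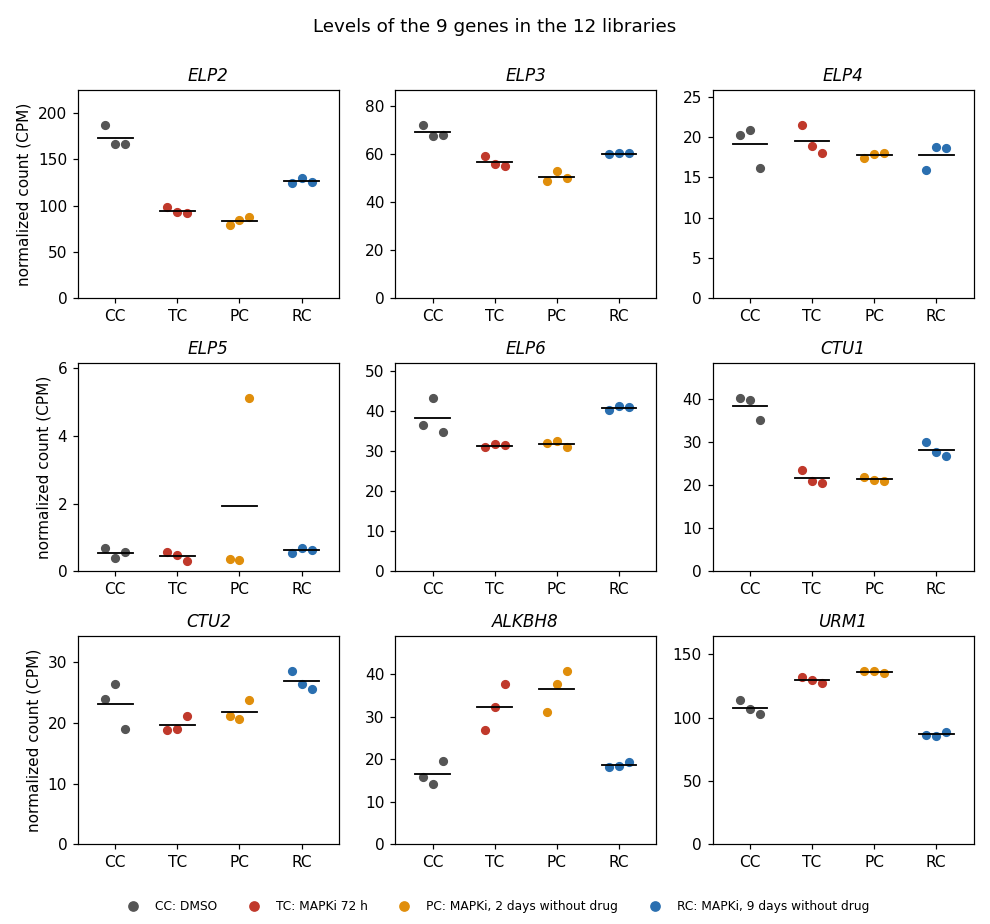
Normalized counts (CPM, linear axes from 0) of the 9 genes in each of the 12 libraries, with a point per library and a line at the mean of the 3 libraries of a group. ELP2 and CTU1 are lower in TC and PC than in CC and lie between in RC, ALKBH8 is higher in TC and PC only, and ELP5 has a single high library in PC.

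ELP2 had the lowest log2 fold change of the Elongator subunits in TC, PC and RC. The gene lies on the plus strand at chr18:36129444-36180557 (hg38). Its CC libraries were at 186.8, 166.3 and 166.7 CPM, its TC libraries at 98.4, 92.7 and 92.6 CPM, its PC libraries at 79.3, 84.6 and 87.8 CPM, and its RC libraries at 124.7, 129.5 and 125.6 CPM. No library of TC, PC or RC reached the lowest CC library, and the RC libraries lay apart from PC and CC, between them. Its log2 fold change against CC was -0.87 in TC (SE 0.06, adjusted p = 1.39e-07) and -1.05 in PC (SE 0.06, adjusted p = 2.88e-08), that is 1.83-fold and 2.07-fold lower. In RC it was -0.45 (SE 0.06, adjusted p = 0.000242).

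CTU1, the catalytic thiolase, lies on the minus strand at chr19:51097606-51108409 (hg38). It was at 40.2, 39.8 and 35.1 CPM in CC, 23.5, 21.1 and 20.4 CPM in TC, 22.0, 21.2 and 21.0 CPM in PC, and 30.0, 27.7 and 26.8 CPM in RC. As for ELP2, the RC libraries stood between the controls and both earlier groups without overlap. Against CC, the log2 fold change was -0.83 in TC (SE 0.08, adjusted p = 1.97e-06), -0.84 in PC (SE 0.08, adjusted p = 1.58e-06) and -0.44 in RC (SE 0.08, adjusted p = 0.00121). Of the 36 pairs of members, ELP2 and CTU1 had the most alike log2 fold changes over the 3 comparisons with CC, with a root mean square difference of 0.122. ELP6 and CTU2 were almost as alike, at 0.128. These comparisons share the control libraries, so the likeness is a description.

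ALKBH8, on the minus strand at chr11:107502727-107565742 (hg38), went the other way. Its CC libraries were at 15.7, 14.2 and 19.6 CPM, its TC libraries at 26.8, 32.3 and 37.6 CPM, its PC libraries at 31.1, 37.6 and 40.7 CPM, and its RC libraries at 18.1, 18.4 and 19.5 CPM. Every TC and PC library was above every CC and RC library, and the RC and CC libraries overlapped. In TC the log2 fold change against CC was 0.96 (SE 0.15, adjusted p = 8.62e-05), and in PC it was 1.14 (SE 0.15, adjusted p = 1.97e-05). In RC it was 0.17 (SE 0.15, adjusted p = 0.379, 95% interval -0.14 to 0.49).

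The promoters of these 3 genes and of CTU2, the member that the study silenced in other experiments, are given so that the sequence at each start can be read beside the changes. They are RefSeq windows of 300 bases (GRCh38.p14), from 250 bases before to 50 bases after the start, written 5′ to 3′ on the strand of the gene. Capitals mark CGGAAG, the core of ETS family sites, and TGACGT, a core part of the cAMP response element, on either strand (CTTCCG and ACGTCA where the match is on the other strand).
ELP2, chr18:36129649-36129948, plus strand: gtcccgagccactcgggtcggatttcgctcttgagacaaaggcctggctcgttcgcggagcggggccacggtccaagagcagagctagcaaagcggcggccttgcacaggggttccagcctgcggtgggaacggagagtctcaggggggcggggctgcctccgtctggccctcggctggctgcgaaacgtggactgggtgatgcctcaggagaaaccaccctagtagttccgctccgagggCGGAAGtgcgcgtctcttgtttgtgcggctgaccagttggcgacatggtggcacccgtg
CTU1, chr19:51108360-51108659, minus strand: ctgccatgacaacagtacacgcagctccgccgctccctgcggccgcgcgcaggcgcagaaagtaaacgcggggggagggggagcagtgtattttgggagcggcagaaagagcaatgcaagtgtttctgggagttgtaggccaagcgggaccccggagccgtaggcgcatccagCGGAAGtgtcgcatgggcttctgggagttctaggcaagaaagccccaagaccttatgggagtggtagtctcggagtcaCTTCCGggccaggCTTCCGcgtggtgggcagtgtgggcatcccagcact
ALKBH8, chr11:107565686-107565985, minus strand: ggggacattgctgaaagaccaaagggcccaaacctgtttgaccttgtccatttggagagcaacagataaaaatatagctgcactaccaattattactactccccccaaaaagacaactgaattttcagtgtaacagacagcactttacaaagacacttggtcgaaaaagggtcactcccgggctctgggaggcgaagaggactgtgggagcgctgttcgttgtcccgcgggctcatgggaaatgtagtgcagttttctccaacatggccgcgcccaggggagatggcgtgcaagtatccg
CTU2, chr16:88706253-88706552, plus strand: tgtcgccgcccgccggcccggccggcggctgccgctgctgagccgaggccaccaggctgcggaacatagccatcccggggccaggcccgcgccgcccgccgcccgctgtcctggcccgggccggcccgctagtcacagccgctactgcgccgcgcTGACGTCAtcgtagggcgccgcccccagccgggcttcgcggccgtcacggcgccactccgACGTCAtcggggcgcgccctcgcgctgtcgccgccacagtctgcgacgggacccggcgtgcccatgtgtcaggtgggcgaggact

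CGGAAG stood 3 times in the CTU1 window, at -77, 1 and 14 bases from the start, and 1 time in the ELP2 window, at -9 bases. It was in 19.46% of the 35116 promoters of the RefSeq table. The ALKBH8 window held neither motif. CTU2 had 3 matches of TGACGT, which was in 7.98% of all promoters; those at -95 and -93 bases overlap, since the palindrome TGACGTCA matches on both strands, and another was at -35 bases. With 11 windows for 7 of the 9 members, CGGAAG was also in the window of ELP4, which did not pass the test against CC, at -134 bases, in 1 of the ELP5 windows at -195 bases, and in ELP6 windows. TGACGT was also in windows of ELP4 and ELP5. So CGGAAG was in windows of members that fell (ELP2, CTU1 and ELP6) and of members not called against CC (ELP4 and ELP5). Among the 7 members with a window, TGACGT was only in those not called against CC (CTU2, ELP4 and ELP5). ELP3 and URM1, both called against CC, had no RefSeq window here. Any link of the motifs to the changes was not tested. A match describes the letters of the window, and binding was not measured here.

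URM1, on the plus strand at chr9:128371361-128392016 (hg38), rose under treatment and ended below the controls. It was at 113.8, 106.7 and 102.7 CPM in CC, 132.4, 129.6 and 127.5 CPM in TC, 136.8, 136.6 and 135.0 CPM in PC, and 86.5, 85.2 and 89.1 CPM in RC. The 4 groups did not overlap, although PC against TC was not called (log2 fold change 0.07, adjusted p = 0.38). Against CC, the log2 fold change was 0.27 in TC (SE 0.05, adjusted p = 0.000657), 0.34 in PC (SE 0.05, adjusted p = 0.000103) and -0.31 in RC (SE 0.05, adjusted p = 0.000871).

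ELP3, the catalytic subunit, fell in all 3 groups, by smaller values than ELP2. It was at 72.0, 67.3 and 67.8 CPM in CC, 59.3, 56.0 and 54.8 CPM in TC, 48.9, 52.95 and 49.8 CPM in PC, and 60.0, 60.2 and 60.4 CPM in RC. All libraries of TC, PC and RC were below the CC libraries. Its log2 fold change against CC was -0.28 in TC (SE 0.06, adjusted p = 0.000656), -0.45 in PC (SE 0.06, adjusted p = 1.48e-05) and -0.20 in RC (SE 0.06, adjusted p = 0.0151). The RC call was lost when only RC and CC were fitted (adjusted p = 0.0796) and without CC replicate 1 (0.0504), RC replicate 1 (0.0512) or RC replicate 2 (0.0522), and the adjusted p ran from 0.00578 to 0.0796 over the 18 alternatives.

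Of the accessory ring, ELP6 fell in TC and PC and ELP4 did not pass the test. ELP6 (chr3:47495640-47513712, minus strand, hg38) was at 36.4, 43.2 and 34.8 CPM in CC, 31.0, 31.6 and 31.4 CPM in TC, 32.1, 32.4 and 30.9 CPM in PC, and 40.1, 41.3 and 41.0 CPM in RC. The TC and PC libraries lay below all CC libraries, with log2 fold changes of -0.28 (SE 0.08, adjusted p = 0.00576) and -0.26 (SE 0.08, adjusted p = 0.00873). Without CC replicate 2, the highest control, the values were -0.19 (adjusted p = 0.0111) and -0.16 (adjusted p = 0.0195). The PC call was lost when only PC and CC were fitted (adjusted p = 0.0591, range 0.00222 to 0.0591 over the alternatives). In RC the libraries overlapped with CC (log2 fold change 0.10, adjusted p = 0.346), and without CC replicate 2 the value was 0.20 (adjusted p = 0.0159, range 0.0159 to 0.696). ELP4 (chr11:31509755-31790324, plus strand) ranged from 15.9 to 21.5 CPM over the 12 libraries and overlapped with CC in each group. Its log2 fold changes against CC were 0.03 in TC (95% interval -0.22 to 0.27), -0.10 in PC (-0.34 to 0.14) and -0.10 in RC (-0.34 to 0.14), with adjusted p from 0.433 to 0.844. By the GENCODE annotation, 19.6% of the ELP4 exon bases are shared with genes on the opposite strand, mostly PAX6. The counting used the NCBI annotation and its strand setting is not given, so any effect on the ELP4 count cannot be told.

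ELP5 (chr17:7251416-7259940, plus strand, hg38) had 14 to 39 reads in 11 libraries and 221 reads in PC replicate 3. Its libraries were at 0.691, 0.407 and 0.571 CPM in CC, 0.570, 0.485 and 0.298 CPM in TC, 0.366, 0.326 and 5.11 CPM in PC, and 0.542, 0.694 and 0.643 CPM in RC. PC against CC gave 1.80 on the log2 scale (SE 0.83, adjusted p = 0.0731), and without PC replicate 3 it was -0.68 (SE 0.38, adjusted p = 0.137, range 0.0167 to 0.207 over the alternatives). Without PC replicate 1 it was 2.28 (adjusted p = 0.0205) and without PC replicate 2 it was 2.30 (adjusted p = 0.0167), values that rest on the high library and 1 other. In TC and RC the log2 fold changes were -0.31 (adjusted p = 0.766) and 0.18 (adjusted p = 0.894). OSGEP, the catalytic subunit of a complex that modifies the base after the anticodon, had 174 reads in the same library and 2 to 16 in the others. Between 2 and 12 genes per library had at least 100 reads there and over 5 times the CPM of every other library, and PC replicate 3 had 7 of them. ELP5 is the only member of which the table also lists a numbered copy, which had 0 reads, and 18.2% of its exon bases are shared with opposite-strand genes. The part of these in the low counts was not tested.

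**Figure D2:**
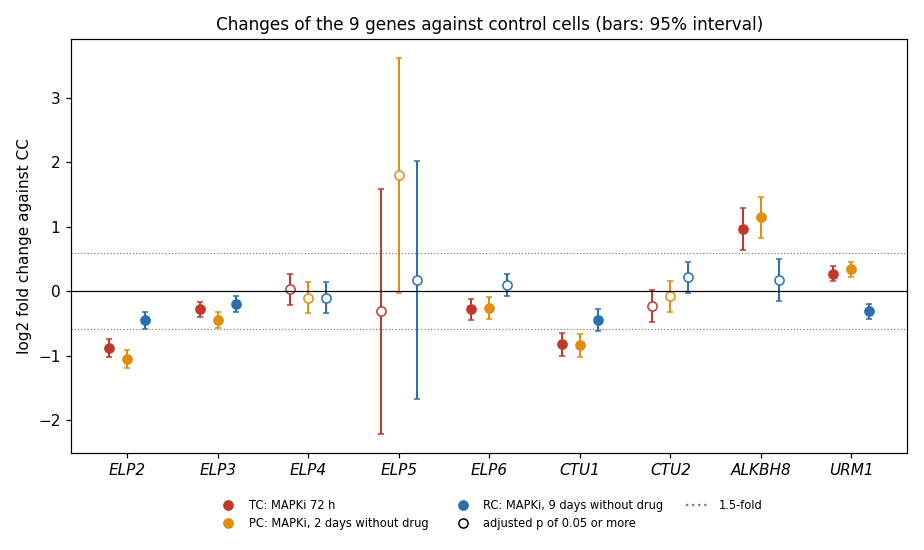
Log2 fold change of each gene in TC, PC and RC against CC from the fit of all 12 libraries, with 95% intervals as bars, filled points for an adjusted p under 0.05 and dotted lines at 1.5-fold. ELP2, CTU1 and ALKBH8 pass the test against 1.5-fold in TC and PC (ALKBH8 in TC only with TC replicate 3 included), none does in RC, and the interval of ELP5 is the widest.

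CTU2, the noncatalytic partner of CTU1, did not pass the test against CC in any group. Its libraries were at 23.9, 26.4 and 19.0 CPM in CC, 18.8, 19.1 and 21.1 CPM in TC, 21.1, 20.7 and 23.8 CPM in PC, and 28.5, 26.4 and 25.5 CPM in RC. The CC libraries spread over the whole range of TC and PC except for the lowest TC library. Against CC the log2 fold change was -0.23 in TC (SE 0.11, adjusted p = 0.0841, 95% interval -0.48 to 0.01), -0.08 in PC (adjusted p = 0.538, -0.33 to 0.17) and 0.21 in RC (adjusted p = 0.156, -0.03 to 0.46). The TC value moved with the controls, to -0.35 without CC replicate 3, the lowest (adjusted p = 0.00451), and to -0.13 without CC replicate 2, the highest (adjusted p = 0.322), and these bound the adjusted p over the alternatives. In RC, the value without CC replicate 2 was 0.32 (adjusted p = 0.0396, range 0.0396 to 0.426). By the annotation, 10.0% of its exon bases are shared with opposite-strand genes.

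The reagents by which the study silenced and measured CTU2 are shown with their place in the gene, which lies on the plus strand at chr16:88706483-88715396 (hg38), since CTU2 is the member whose loss the study examined. They were not used in these libraries. The siRNA sequences are the sense strands as listed by the study.
siCTU2#1: cuaucaagcucaugaccaa
siCTU2#2: gcgugaacaugaaggacuu
CTU2_1_F: ggacactgactgccaaggag
CTU2_1_R: ttggtcatgagcttgatagcc

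In the canonical transcript of 15 exons, siCTU2#1 matches exon 8 (chr16:88713389-88713407) and siCTU2#2 matches exon 13 (chr16:88714907-88714925), both in the coding sequence. The forward primer lies in exon 7 (chr16:88712866-88712885) and the reverse primer in exon 8 (chr16:88713387-88713407), for an amplicon of 136 bases. The site of siCTU2#1 lies within that of the reverse primer.

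The thiolase pair was also compared within each library, as the ratio of CTU1 to CTU2, both per kb of transcript. The controls had ratios of 1.36, 1.22 and 1.49 (mean 1.36 ± 0.137, SD, n = 3). The ratios were 1.01, 0.894 and 0.784 for the TC libraries (mean 0.897 ± 0.115), 0.845, 0.831 and 0.717 for the PC libraries (mean 0.798 ± 0.0700), and from 0.849 to 0.853 for the RC libraries (mean 0.851 ± 0.0018). All 9 libraries with a history of MAPKi lay below all 3 controls. The two-sided exact permutation test gave p = 0.1 in each of the 3 comparisons, the smallest value that 3 against 3 libraries allow.

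**Figure D3:**
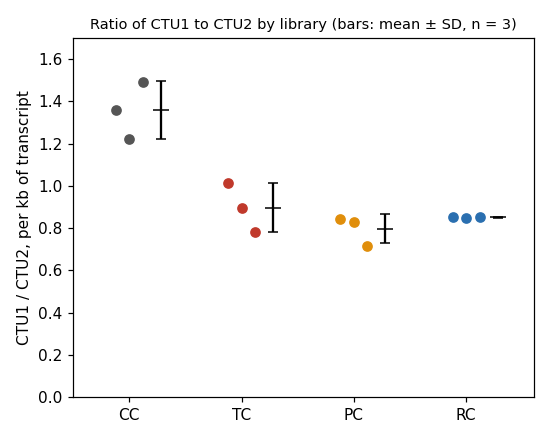
Ratio of CTU1 to CTU2 (CPM per kb of canonical transcript, linear axis from 0) in each library, with the mean ± SD of 3 libraries beside the points. The CC libraries lie between 1.22 and 1.49, and the libraries of TC, PC and RC lie at or below 1.01.

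By the rule set for CTU2, the 5 closest of 11914 genes (mean scaled count 100 or more) were found by the root mean square difference from its 3 log2 fold changes against CC. These were LSS, the lanosterol synthase of sterol synthesis (0.0109), CCDC144CP (0.0221), RABEP1, an endosomal trafficking gene (0.0291), EIF2AK2, the kinase activated by double-stranded RNA (0.0297), and PRKAR1B, a regulatory subunit of protein kinase A (0.0307). CCDC144CP is a pseudogene of a family with near-identical copies, so its reads are uncertain. These profiles were small, from -0.27 to 0.25 on the log2 scale. Each CTU2 value had an SE of 0.11, larger than all 5 distances, so the ranking lies within error. LSS and CCDC144CP, like CTU2, were not called in any of the 3 comparisons. RABEP1, EIF2AK2 and PRKAR1B were called in TC, and EIF2AK2 also in RC.

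In PC against CC the same numbers were called as in TC, 2 members higher and 4 lower, beside 33.2% of all genes higher and 35.9% lower. Beyond 1.5-fold, 1 was higher and 2 were lower, beside 17.2% and 19.9% of all genes, and without PC replicate 1 or PC replicate 2 there were 2 higher. The further member was ELP5, whose value rests on the high library, PC replicate 3. In RC against CC, 4 members were lower (ELP2, CTU1, URM1 and ELP3) and 0 higher, where 19.1% of all genes were lower and 18.2% higher. DESeq2 called 0 higher as well, and 0 were higher at an unadjusted p under 0.05. Beyond 1.5-fold, edgeR's glmTreat and DESeq2 called 0 members in RC, with 0 at an unadjusted p under 0.05, where 1.35% of all genes were higher and 2.52% lower.

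From TC to PC, over 2 days without drug, few members moved. ELP3 was the 1 member called, at -0.17 on the log2 scale (SE 0.06, adjusted p = 0.0488), against 12.2% of all genes higher and 12.5% lower. That call held in 4 of the 18 alternatives (adjusted p from 0.0323 to 0.19), and was lost without any 1 of the TC, PC or RC libraries. ELP2 had a log2 fold change of -0.17 (adjusted p = 0.0689) although its libraries did not overlap between TC and PC, and it passed with only TC and PC fitted (adjusted p = 0.0347) or without CC replicate 1 (0.0383), 2 (0.0482) or 3 (0.0495). Beyond 1.5-fold, both tools called 0 members, with 1 (ELP5, higher) at an unadjusted p under 0.05, beside 2.33% of all genes higher and 1.15% lower.

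From PC to RC, 7 members changed, with 5 higher and 2 lower, beside 35.7% of all genes higher and 34.2% lower. On the log2 scale ELP2 rose by 0.59 (SE 0.06, adjusted p = 3.93e-06), CTU1 by 0.40 (SE 0.08, adjusted p = 0.000828), ELP6 by 0.36 (SE 0.08, adjusted p = 0.00111) and ELP3 by 0.25 (SE 0.06, adjusted p = 0.00152). CTU2 rose by 0.30 (SE 0.11, adjusted p = 0.0335), a call lost without PC replicate 1 (adjusted p = 0.0936), PC replicate 2 (0.106), RC replicate 1 (0.117) or RC replicate 2 (0.0688), with a range of 0.00594 to 0.117 over the alternatives. ALKBH8 fell by 0.97 (SE 0.15, adjusted p = 7.43e-05) and URM1 fell by 0.65 (SE 0.05, adjusted p = 3.46e-07). Only ALKBH8 was beyond 1.5-fold, beside 20.2% of all genes higher and 18.5% lower, and URM1 joined it when only RC and PC were fitted or without CC replicate 3.

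Other genes of tRNA anticodon loop modification were taken from lists by function, with the share of all genes called as above. Of the 5 genes that serve Elongator or the thiolase pair as partners, 4 were tested, and KTI12 had 0 reads in every library. By the GENCODE annotation, 65.75% of the KTI12 exon bases are shared with genes on its own strand. Whether this bears on its count was not tested. In TC, 2 of the 4 tested partners rose and 2 fell, and in PC 2 rose and 1 fell. In RC 1 rose, TRMT112 (adjusted p = 0.0481), whose libraries overlapped with CC. The RC rise was lost with a summed count of at least 2, with only RC and CC fitted, with the replicate block, and without CC replicate 1 or any 1 library of TC, PC or RC, and without CC replicate 3 there was also 1 fall. In TC, 1 rose and 1 fell with only TC and CC fitted. DPH3, which passes electrons to Elongator and to diphthamide synthesis, rose from 15.8 CPM in CC to 46.3 CPM in TC (log2 fold change 1.55, SE 0.09, adjusted p = 1.82e-08) and 60.3 CPM in PC (1.93, SE 0.09, adjusted p = 3.17e-09). In RC it was at 16.9 CPM (log2 fold change 0.09, adjusted p = 0.47). NFS1, the cysteine desulfurase that supplies the sulfur, was at 45.9, 32.4, 25.1 and 39.1 CPM in CC, TC, PC and RC, and its log2 fold change against CC was -0.51 in TC (adjusted p = 0.00329) and -0.87 in PC (SE 0.13, adjusted p = 5.48e-05). TRMT112, the partner of the ALKBH8 methyltransferase, had a log2 fold change of -0.24 in TC (adjusted p = 0.00869), where ALKBH8 rose.

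Among the mitochondrial counterparts, MTO1 and GTPBP3 fell in TC and PC. Of the 3 genes for wobble uridine in mitochondrial tRNAs, 2 fell in TC, 2 in PC and 1 in RC, where 1 also rose without CC replicate 3. MTO1, which with GTPBP3 adds the taurine group, had log2 fold changes of -0.80 in TC (SE 0.08, adjusted p = 2.87e-06), -0.93 in PC (adjusted p = 6.93e-07) and -0.32 in RC (adjusted p = 0.00862). GTPBP3 had -0.94 in TC (SE 0.09, adjusted p = 2.01e-06), -0.89 in PC (adjusted p = 2.9e-06) and 0.13 in RC (adjusted p = 0.301). TRMU, the mitochondrial thiolase, did not pass the test in the 3 comparisons, with adjusted p from 0.134 to 0.907.

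Of 9 genes for other modifications of the wobble base, 2 rose and 4 fell in TC, 1 rose and 4 fell in PC, and 1 rose in RC, the cytosine methyltransferase gene NSUN2 (log2 fold change 0.33, adjusted p = 0.0204). In RC there were 0 rises with only RC and CC fitted or without CC replicate 1, CC replicate 2, RC replicate 1 or RC replicate 2, and 2 without CC replicate 3. In TC there was 1 rise with only TC and CC fitted or without CC replicate 1 or TC replicate 1, and in PC there were 2 falls with only PC and CC fitted. ADAT2, the catalytic subunit of the deaminase that makes inosine, fell from 9.24 CPM in CC to 2.62 CPM in TC (log2 fold change -1.82, SE 0.15, adjusted p = 4.74e-07) and 3.35 CPM in PC (-1.46, adjusted p = 2.83e-06), and was at 10.5 CPM in RC. Its partner ADAT3 had log2 fold changes of 0.34 in TC (adjusted p = 0.0204) and -0.02 in PC (adjusted p = 0.909).

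Of 12 genes for the base after the anticodon, 11 were tested and TPRKB had 0 to 3 reads a library. In TC 3 rose and 4 fell, in PC 5 rose and 5 fell, and in RC 2 rose and 3 fell. With only the groups compared, 3 rose and 3 fell in PC and 0 rose in RC, and without PC replicate 3 there were 3 rises in PC. In RC there were 0 rises without RC replicate 1 or RC replicate 2, 1 without CC replicate 1 or CC replicate 3, and 2 falls without CC replicate 3, RC replicate 1 or RC replicate 3. TRIT1, the isopentenyl transferase, had log2 fold changes of -1.01 in TC (SE 0.07, adjusted p = 9.07e-08) and -1.23 in PC (adjusted p = 1.75e-08). CDK5RAP1, which adds a methylthio group to the product of TRIT1 in mitochondria, had -0.78 (adjusted p = 5.46e-05) and -1.15 (adjusted p = 1.97e-06). TYW5, of wybutosine synthesis, had -0.78 in TC (adjusted p = 3.16e-05). LAGE3, a subunit of the OSGEP complex, rose by 0.96 in TC (SE 0.11, adjusted p = 9.39e-06) and 1.10 in PC (adjusted p = 2.57e-06). One of the 5 rises in PC is OSGEP (log2 fold change 2.91, adjusted p = 0.0287), whose value without PC replicate 3 was -0.29 (adjusted p = 0.706). The median log2 fold change in TC was 0.03 over the partners, -0.80 over the mitochondrial genes, -0.08 over the other wobble genes, -0.12 over the genes for the base after the anticodon, -0.28 over the 9 members and -0.02 over all genes.

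**Figure D4:**
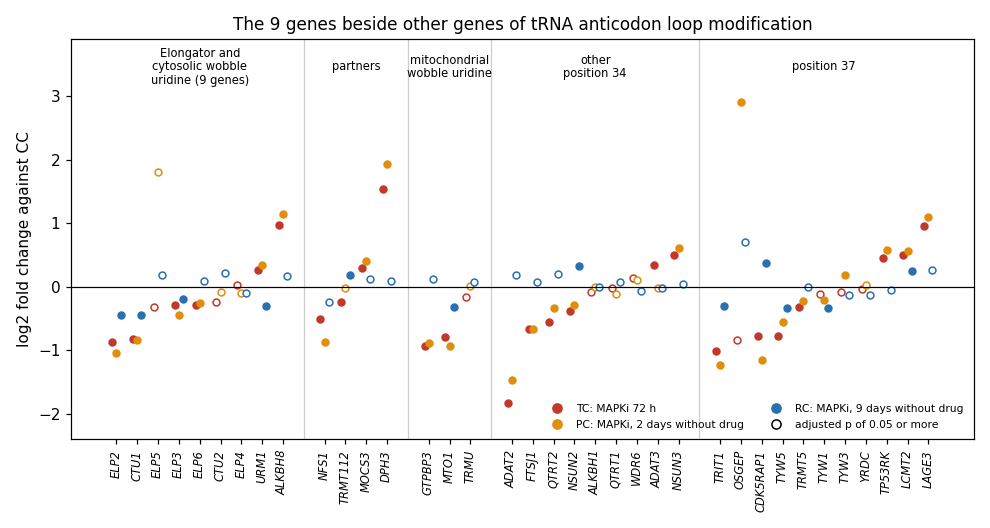
Log2 fold change against CC in TC, PC and RC of the 9 genes and of the tested genes on 4 other lists of anticodon loop modification, with filled points for an adjusted p under 0.05. DPH3 stands at 1.55 and 1.93 in TC and PC, ADAT2 at -1.82 and -1.46, and the high PC value of OSGEP rests on 1 library.

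3 members share a start region with a gene on the opposite strand. Starts here are the outermost gene starts of GENCODE. That of ELP2 (chr18:36129444) lies before its RefSeq promoter window (chr18:36129649-36129948). SLC39A6, a zinc transporter gene whose start lies 59 bases from that of ELP2, fell with it in TC (log2 fold change -0.55, adjusted p = 4.05e-06) and PC (-0.40, adjusted p = 6.2e-05), and was higher than CC in RC (0.21, adjusted p = 0.0158), where ELP2 was lower. IMMP1L, 110 bases from ELP4, and RNF166, 75 bases from CTU2, did not pass the test, with log2 fold changes from -0.26 to -0.03 and adjusted p from 0.198 to 0.749. The other members had no such protein-coding neighbor within 1000 bases.

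The coding sequences of the members differ in the codons that the modified tRNAs read. AAA, GAA and CAA together made up 9.64% of the codons of ALKBH8, 8.23% of ELP2, 8.04% of ELP3, 7.08% of ELP4, 5.00% of ELP5, 3.38% of ELP6, 2.97% of URM1, 1.94% of CTU2 and 0.86% of CTU1. The median was 6.29% over 12726 tested genes with a matched coding sequence, which were 79.96% of those tested, so the median speaks for these alone. Above that median, ALKBH8 rose in TC and PC, ELP2 and ELP3 fell, and ELP4 was not called against CC. Below it, CTU1 and ELP6 fell in TC and PC, URM1 rose in both, and ELP5 and CTU2 were not called against CC. Any link of these codons to the changes was not tested. CTU1 had no AAA codon and a coding GC content of 77.0%, higher than in 99.9% of those genes, beside 64.1% for CTU2.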

How the data were processed

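RNA was sequenced from 12 libraries of A375 cells in 4 groups of 3. The authors trimmed reads with fastp 0.20.1, aligned them to GRCh38.p13 with HISAT2 2.2.1 and counted them per gene with HTSeq 0.13.5 and the NCBI annotation, and the deposited values are raw counts with no normalization. The strand setting and the handling of reads with several alignments are not given in the sources used here. All columns matched the labels of 1 sample. Genes with a mean scaled count of at least 10 were tested in 1 fit of all libraries with TMM factors, by edgeR 4.0.16 (R 4.3.3) quasi-likelihood tests with Benjamini-Hochberg adjustment over all genes tested, and against 1.5-fold by glmTreat. Residual degrees of freedom were 8, and the common biological coefficient of variation was 0.182. The scripts were tested on simulated data. No pair of libraries agreed within sampling noise. Alternatives were DESeq2 1.42.0 size factors or Wald tests, library totals, a filter of 2 summed counts, only the groups compared, a replicate block and leaving out each library. The members and lists were chosen with earlier results of these data known. The text names the members, list genes beyond 1.5-fold in TC, PC or RC against CC, the 5 profiles nearest to CTU2, opposite-strand neighbors within 1000 bases, and DUSP6 and ETV4; TRMT112, NSUN2, TRMU, ADAT3, OSGEP, KTI12 and TPRKB were named after their values were seen. Loci are from GENCODE (hg38) and promoters from RefSeq.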

Additional observations from a re-analysis of the deposited data

Results flagged for a closer look

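URM1 was higher than CC in PC (log2 fold change 0.34) and lower than CC in RC (-0.31), the only member called in both comparisons that changed direction between them. The difference between RC and PC, tested directly by edgeR's quasi-likelihood test, was -0.65 on the log2 scale (SE 0.05, adjusted p = 3.46e-07), and all 3 RC libraries lay below all 3 PC libraries.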

How the results depend on the processing

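Of 810 log2 fold changes of members (9 genes, 5 comparisons, 18 alternatives), 758 kept direction and call, 24 lost the call, 13 gained it and 15 changed sign, none of them called before. The count called in PC against TC, 1, was 0 with DESeq2 size factors, library totals, a summed count of at least 2, the DESeq2 Wald test and the replicate block, 2 with only the groups compared, and 0 to 2 when a library was left out. The count beyond 1.5-fold in RC against PC, 1, was 2 with only the groups compared and 1 to 2 when a library was left out. CTU1 in PC against TC was 0.0012 with DESeq2 size factors, 0.0022 with library totals and 0.0020 with the Wald test, and ELP4 in RC against PC was 0.0235 with library totals. With a library left out, ranges that crossed 0 were -0.0745 to 0.0967 (ELP4, TC against CC), -0.193 to 0.0246 (CTU2, PC against CC), -0.0558 to 0.0549 (CTU1, PC against TC) and -0.0528 to 0.0647 (ELP4, RC against PC). For ELP5 they were -0.68 to 2.30 (PC against CC), -0.0046 to 0.36 (RC against CC), -0.37 to 2.61 (PC against TC) and -2.12 to 0.86 (RC against PC). The cause was not tested. Same-numbered libraries correlated from -0.05 to 0.20 in their deviations from group means, with 2 of 18 pairs above 0.1. Differently numbered libraries ran from -0.17 to 0.06, with 0 of 36 pairs above 0.1. The 2 high pairs were TC 1 with PC 1 (0.202) and TC 3 with PC 3 (0.181). These values do not settle whether the numbers pair the libraries, and the main fit did not pair them. With the replicate block the adjusted p of CTU2 in RC against PC was 0.051, and of the members' other calls that of ELP3 in PC against TC changed, while among the lists 1 rise was lost in RC (partners) and 1 of 5 in PC (base after the anticodon). ELP5 had the lowest counts of the members, at 14 to 39 reads in 11 libraries, and the cause of these was not tested.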
